A study of Arabidopsis thaliana with 6 samples.

Results

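The genes described here belong to a pair of enzyme families that plants use to modify hormones, defence compounds and foreign chemicals, the cytochrome P450 monooxygenases and the tau class of glutathione transferases. They were taken by symbol: a probe set assigned to a single gene entered when the gene's symbol in the platform annotation or the RefSeq gene table was a numbered CYP name or a numbered GSTU name. That gave 33 genes of the 13356 with such a probe set, 22 of them P450 genes and 11 tau glutathione transferase genes, each measured by 1 probe set. RefSeq lists 225 P450 and 27 GSTU symbols of that form, and the other genes of both families were not analysed here.

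P450 enzymes hold a heme group, activate oxygen with electrons from a reductase and insert an atom of it into a substrate. The CYP71B subfamily is a large group of plant P450s whose genes often lie next to each other in the genome. Tau glutathione transferases join the tripeptide glutathione to reactive compounds, and several of their genes are known to be induced by herbicides, oxidised lipids and stress.

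The RNA came from unopened flower buds of the Arabidopsis thaliana line dreb1a (CS872453) in the Col-0 background, and all plants were droughted. DREB1A encodes a transcription factor of the drought and cold response, and the labels do not say how the mutation acts or how many plants gave a sample. Watering stopped when plants had grown for 24 days and bolted to a stem of about 1 cm. About 80 hours on, called day 3, the soil was near 35% of the water it can hold and was kept there. Buds were taken on day 3 (plant age 28 days), day 4 (29 days) and day 5 (30 days), with 2 samples a day and an Affymetrix ATH1 array for each, called the first and the second array of a day below. Wild-type and watered buds were not analysed here, and the effect of age cannot be told apart from that of a longer drought. Nothing in the labels says that the samples of a day came from separate plants, so a p-value here measures a spread that may be technical.

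Values are log2 intensities after RMA, a method that corrects background, gives all arrays nearly the same distribution and sums up the probes of a set. Levels of different probe sets are not on 1 scale, so each gene is compared only with itself, and the number of arrays limits the precision. Between the arrays of a day, the 33 genes differed by medians of 0.11 to 0.14. On every array 13 of the 33 lay below 4.93, the lowest of the arrays' lower quartiles, and 3 of those, CYP71B16, CYP71B24 and CYP71B36, stayed below 3.86, the highest value of the trp control probe sets. The array maker's 27 poly-A control probe sets averaged 6.64 and 6.77 on day 3, 6.70 and 6.62 on day 4, and 7.19 and 7.10 on day 5. After scaling to these 27, the median over all probe sets was -0.53 on day 5 relative to day 4 and -0.45 relative to day 3. With the 24 that are left when trp, which lies at background, is taken out, these medians were -0.60 and -0.50. Each change below is relative to the array as a whole. For the 33 genes, the poly-A scales are given where they end a call, and other genes named below were not run on them.

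A few genes moved strongly, while the share of the 33 that differed among the days was close to that of all probe sets. CYP71B31 rose on day 4 and was still high on day 5. On day 5 GSTU25 and GSTU16 were raised, and GSTU20 and GSTU27 were lowered. Among the neighbouring CYP71B genes, CYP71B26 and CYP71B37 rose and CYP71B22 fell on day 4, and CYP71B37 fell on day 5. Each of those day 4 calls was lost in some fits that left out an array. In limma's moderated F test over the 3 days, 11 of 33 genes differed (adjusted p under 0.05, Benjamini-Hochberg over all 22746 probe sets tested), or 33.3%, against 31.0% of all probe sets. With the contrasts between days added, 12 genes passed some test and 21 passed none. The share of all probe sets that passed some test was not counted.

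For day 4 against day 3, 4 of 33 genes changed, or 12.1%, against 4.95% of all probe sets. Of these 3 rose, or 9.09%, against 2.48%, and 1 fell, or 3.03%, against 2.47%. All 4 were P450 genes of the CYP71B subfamily. For day 5 against day 4, 8 of 33 changed, or 24.2%, against 23.9%: 5 rose, or 15.2%, against 10.5%, and 3 fell, or 9.09%, against 13.4%. For day 5 against day 3, 10 of 33 changed, or 30.3%, against 28.9%: 6 rose, or 18.2%, against 13.2%, and 4 fell, or 12.1%, against 15.7%. The median change of the 33 genes over that span was 0.08 on the log2 scale, against -0.01 for all probe sets, and the median size of change was 0.18, against 0.19. On the scale of the 27 poly-A controls, 3 genes were higher and 20 lower on day 5 than on day 3, or 9.09% and 60.6%, against 3.6% and 72.2% of all probe sets. Relative to day 4, 1 was higher and 25 lower on that scale, or 3.03% and 75.8%, against 2.14% and 79.6%.

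**Figure D1:**
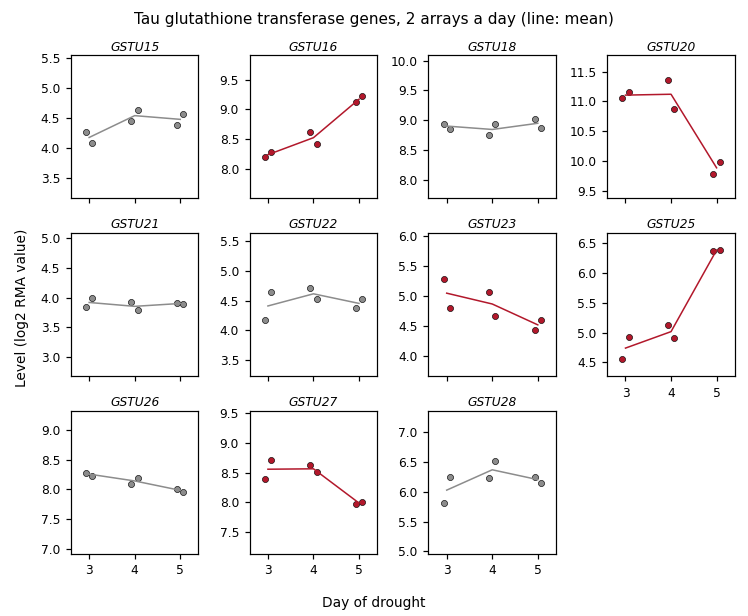
Level (log2 RMA value) of the 11 tau glutathione transferase genes by day of drought, with a point for each of the 2 arrays a day and a line through the day means. Every panel spans the same number of log2 units, coloured panels passed a test, and GSTU25 and GSTU16 end high while GSTU20 and GSTU27 end low.

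Of the tau glutathione transferases, 4 of 11 differed in the F test, or 36.4%, against 31.0% of all probe sets, and none passed for day 4 against day 3, where 4.95% of all probe sets did. GSTU25 (AT1G17180), whose enzyme is known to conjugate the explosive TNT, read 4.55 and 4.93 on day 3, 5.13 and 4.91 on day 4, and 6.38 and 6.39 on day 5. Both day 5 samples stood above all 4 earlier ones, and the samples of days 3 and 4 overlapped. Its level on day 5 was 2.58-fold that on day 4 (log2 change 1.37, SE 0.13, limma adjusted p = 7.72e-05) and 3.13-fold that on day 3 (log2 change 1.65, SE 0.13, adjusted p = 9.93e-06). Both calls were kept in the 16 alternative fits that held the gene. The second step exceeded the first by 1.09 (adjusted p = 0.021). That difference did not pass without the second array of any day or, at 0.48, with 24 poly-A controls (adjusted p = 0.0133 to 0.137 over 15 alternatives).

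GSTU16 (AT1G59700) read 8.20 and 8.28 on day 3, 8.63 and 8.42 on day 4, and 9.12 and 9.22 on day 5. The 3 days did not overlap and stood in order of time. Day 5 exceeded day 3 by 0.93 (SE 0.11, limma adjusted p = 9.94e-05), or 1.91-fold, a call kept in all 17 alternatives, though at 0.44 with 24 poly-A controls. The first step of 0.29 did not pass (adjusted p = 0.166) and the second of 0.65 did (adjusted p = 0.00187). That second step was 0.17 with 27 poly-A controls (adjusted p = 0.216) and 0.10 with 24 (adjusted p = 0.487), in a range of 0.00013 to 0.487 over 17 alternatives. A difference between its steps was not shown (adjusted p = 0.259).

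GSTU20 (AT1G78370) is known to take part in the synthesis of glucosinolates, the defence compounds of the cabbage order, and to bind the enzyme that makes active jasmonate. It read 11.06 and 11.15 on day 3, 11.36 and 10.87 on day 4, and 9.79 and 9.98 on day 5. Both day 5 samples were lower than all 4 others, which overlapped. On day 5 it had dropped by 1.24 relative to day 4 (SE 0.15, limma adjusted p = 0.000283) and by 1.22 relative to day 3 (SE 0.15, adjusted p = 0.000135), and both calls were kept in all 17 alternatives. The first step was 0.01, with a 95% interval of -0.31 to 0.34. The second step minus the first was -1.25 (adjusted p = 0.0193), a call lost without the first array of day 3 or, at -0.76, of day 4 (adjusted p = 0.000186 to 0.0997 over 16 alternatives).

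GSTU27 (AT3G43800) read 8.40 and 8.71 on day 3, 8.62 and 8.51 on day 4, and 7.97 and 8.01 on day 5. The day 5 samples were the lowest, clear of the rest. Relative to day 4 its level on day 5 was lower by a factor of 1.49 (SE of the log2 change 0.12, limma adjusted p = 0.00609), in all 17 alternatives. Relative to day 3 it was lower by a factor of 1.48 (adjusted p = 0.00462), and that call ended without the second array of day 3 (adjusted p = 0.0546; 3.77e-06 to 0.0546 over 17 alternatives).

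GSTU23 (AT1G78320) read 5.29 and 4.80 on day 3, 5.06 and 4.67 on day 4, and 4.43 and 4.60 on day 5. The day 5 samples lay below the others, while those of days 3 and 4 spread widely. It was lower on day 5 than on day 3 by a log2 change of -0.53 (SE 0.17, limma adjusted p = 0.0351), without passing the F test (adjusted p = 0.0726). Without the first array of day 3 that change was -0.29, and with 24 poly-A controls it was -1.02. The call ended without that array of day 3 and without either array of day 5 (adjusted p = 9.98e-05 to 0.29 over 16 alternatives).

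The other 6 tau genes passed no test. GSTU26 (AT1G17190), known to respond to herbicides, read 8.28 and 8.23 on day 3, 8.10 and 8.18 on day 4, and 8.01 and 7.96 on day 5. Its days did not overlap, each lower than the one before, but day 5 against day 3 at -0.27 missed the threshold (limma adjusted p = 0.0607). It passed when the dimmest 30% of the table was removed (adjusted p = 0.0381) and on both poly-A scales (adjusted p = 0.000102 to 0.243 over 17 alternatives). GSTU18 lay between 8.76 and 9.03 on all arrays and GSTU21 between 3.78 and 3.99. GSTU15, GSTU22 and GSTU28 had changes between day 5 and day 3 of 0.30, 0.04 and 0.18. Over these 6 genes, the 95% intervals of the change for day 5 against day 3 ran from -0.49 to 0.56.

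**Figure D2:**
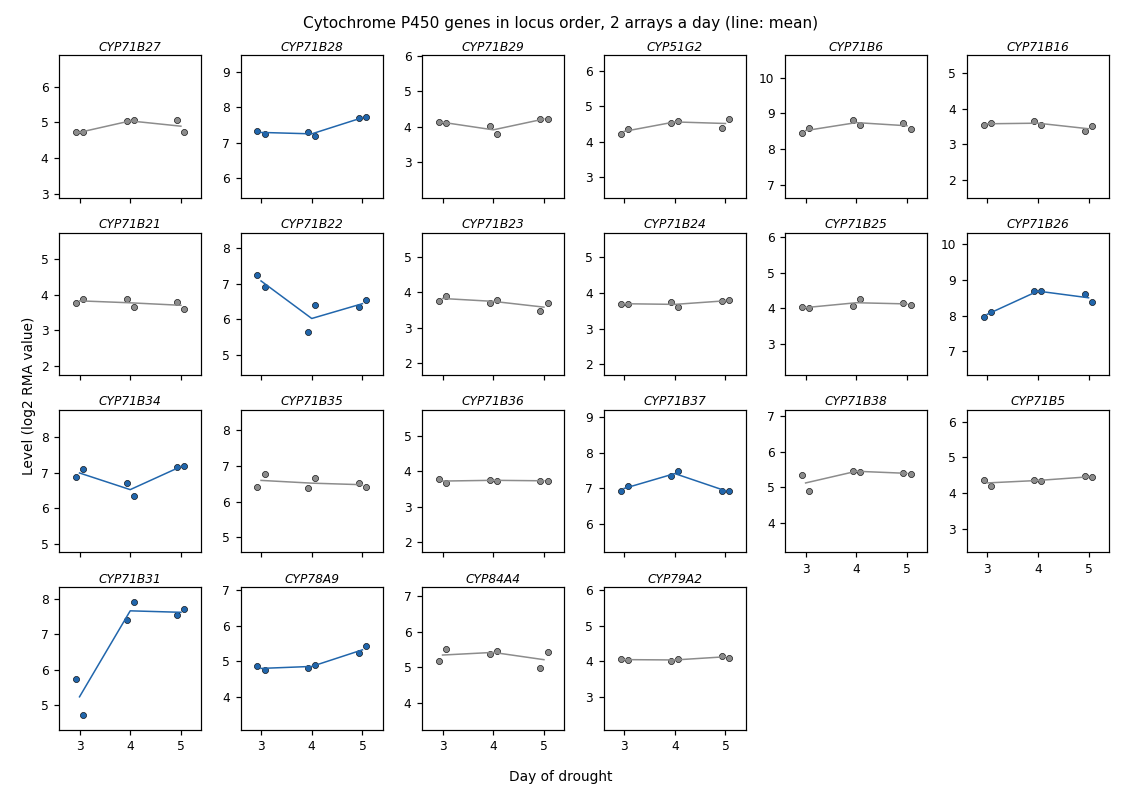
Level (log2 RMA value) of the 22 P450 genes by day of drought, in the order of their locus numbers, with a point for each of the 2 arrays a day and a line through the day means. Panels span equal ranges and the 7 coloured ones passed a test; CYP71B31 averages 5.24 on day 3, 7.66 on day 4 and 7.61 on day 5.

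Of the P450 genes, 7 of 22 passed the F test, or 31.8%, against 31.0% of all probe sets, 6 of them among the 18 of subfamily CYP71B. CYP71B31 (AT3G53300), whose enzyme is known to oxidise the scent alcohol linalool in Arabidopsis flowers, read 5.75 and 4.73 on day 3, 7.41 and 7.91 on day 4, and 7.53 and 7.70 on day 5. All 4 later samples were higher than both day 3 samples, which were themselves far apart, and days 4 and 5 overlapped. Day 4 exceeded day 3 by 2.41 (SE 0.26, limma adjusted p = 0.000696) and day 5 exceeded day 3 by 2.37 (SE 0.26, adjusted p = 7.31e-05), or 5.18-fold, and both calls were kept in all 17 alternatives. Day 5 minus day 4 was -0.04, with a 95% interval of -0.62 to 0.54, and with 24 poly-A controls it was past the test at -0.59 (adjusted p = 0.0389, the lowest of 17 alternatives, the highest being 0.981). The second step minus the first was -2.46 (adjusted p = 0.0119), which did not pass without the second array of day 4 (adjusted p = 0.112; 0.000245 to 0.112 over 16 alternatives). Its neighbour CYP71B5 (AT3G53280) lay between 4.21 and 4.47 on all 6 arrays and changed by 0.17 for day 5 against day 3 (adjusted p = 0.246).

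A run of 11 CYP71B genes lay between AT3G26150 and AT3G26330, and 4 of them passed the F test, or 36.4%, against 31.0% of all probe sets, in unlike courses. CYP71B22 (AT3G26200) read 7.24 and 6.92 on day 3, 5.65 and 6.41 on day 4, and 6.35 and 6.54 on day 5. Day 3 stood above all later samples, and day 4 spread widely enough to take in 1 of the day 5 values. On day 4 it dropped by 1.05 relative to day 3 (SE 0.20, limma adjusted p = 0.0155), but by 0.67 when the first array of day 4 was left out and by 1.44 when the second was. The call ended without either array of day 3 (adjusted p = 0.00247 to 0.159 over 17 alternatives). On day 5 relative to day 3 it stood at -0.64 (adjusted p = 0.037), a call that ended without any 1 of the 4 arrays of those days and under median centring, repeated quantile normalization and cyclic loess (adjusted p = 2e-04 to 0.23). On the scale of 24 poly-A controls this change of CYP71B22 was -1.13.

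CYP71B26 (AT3G26290) took the opposite course on day 4. It read 7.97 and 8.10 on day 3, 8.68 and 8.70 on day 4, and 8.62 and 8.39 on day 5, so that day 3 was the lowest and day 4 the highest, with no overlap. The rise on day 4 was 0.65 (SE 0.11, limma adjusted p = 0.00814), or 1.57-fold, and was not past the test without the first array of day 3 or the second of day 4 (adjusted p = 0.000854 to 0.0994 over 17 alternatives). Day 5 exceeded day 3 by 0.47 (adjusted p = 0.00914), but the change was 0.03 with 27 poly-A controls (adjusted p = 0.834) and turned to -0.02 with 24 (adjusted p = 0.876, the highest of 17 alternatives). That call also ended without the first array of day 3 or of day 5.

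CYP71B37 (AT3G26330) had its highest day mean on day 4, and CYP71B34 (AT3G26300) its lowest. CYP71B37 read 6.94 and 7.06 on day 3, 7.35 and 7.48 on day 4, and 6.93 and 6.93 on day 5. Day 4 was high, and day 5 was just below day 3. The rise on day 4 was 0.42 (limma adjusted p = 0.0432), which did not pass in 9 of 17 alternatives, among them leaving out any 1 of the 6 arrays (adjusted p = 0.0288 to 0.271). It was also lost, at 0.46, with 27 poly-A controls (adjusted p = 0.0535), and kept, at 0.48, with 24 (adjusted p = 0.0453). On day 5 it fell by 0.48 relative to day 4 (SE 0.10, adjusted p = 0.0069), in all 17.

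CYP71B34 read 6.89 and 7.10 on day 3, 6.70 and 6.35 on day 4, and 7.16 and 7.19 on day 5. Day 4 was the low point, clear of both other days. On day 5 it exceeded day 4 by 0.65 (SE 0.13, limma adjusted p = 0.00505), though by 0.17 with 27 poly-A controls (adjusted p = 0.232) and 0.10 with 24 (adjusted p = 0.492; 0.00283 to 0.492 over 17 alternatives). The earlier step of -0.47 missed the threshold (adjusted p = 0.0684; 0.0281 to 0.304), passing it when the first array of day 4 was left out.

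The other 7 genes of that run passed no test: CYP71B16, CYP71B21, CYP71B23, CYP71B24, CYP71B25, CYP71B35 and CYP71B36. CYP71B35 (AT3G26310), between CYP71B34 and CYP71B36, read 6.42 and 6.77 on day 3, 6.38 and 6.65 on day 4, and 6.53 and 6.42 on day 5, and its days overlapped. The dim CYP71B16 ranged from 3.36 to 3.65, CYP71B23 from 3.46 to 3.89 and CYP71B24 from 3.60 to 3.79.

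**Figure D3:**
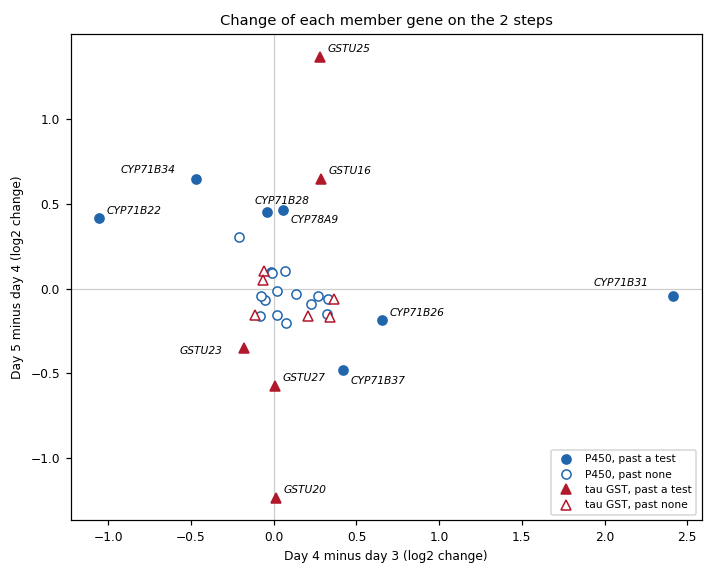
Log2 change of each of the 33 genes for day 4 minus day 3 (horizontal) and day 5 minus day 4 (vertical), with separate symbols for P450 and tau glutathione transferase genes and filled symbols for those that passed a test. Both axes share the day 4 arrays, so an error in those moves a point along the falling diagonal; CYP71B31 lies far right at 2.41, and GSTU25 and GSTU20 lie high and low at 1.37 and -1.24.

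Of 33 genes, 7 had steps that differed from each other (limma adjusted p under 0.05), or 21.2%, against 6.88% of all probe sets. Besides GSTU20, GSTU25 and CYP71B31, given above, they were CYP71B22, CYP71B26, CYP71B34 and CYP71B37. For CYP71B22 the second step exceeded the first by 1.47 (adjusted p = 0.0347), and by 0.71 or 2.23 when the first or the second array of day 4 was left out. It lost the call without either array of day 3, the first of day 4 or the second of day 5 (adjusted p = 0.0102 to 0.178 over 16 alternatives).

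For CYP71B26 the second step minus the first was -0.84 (limma adjusted p = 0.0287). It passed without the first array of day 5 but not without any 1 of the other 5 (adjusted p = 0.000292 to 0.117 over 16 alternatives), and was -1.45 with 24 poly-A controls. For CYP71B34 the value was 1.12 (adjusted p = 0.0176), lost without the second array of day 3 or day 4 and, at 0.50, with 24 poly-A controls (adjusted p = 0.0088 to 0.122). For CYP71B37 it was -0.90 (adjusted p = 0.0162), lost without the first array of day 3 or the second of day 4 (adjusted p = 0.000278 to 0.0989), and -1.51 with 24 poly-A controls. Each of the 7 genes thus lost this call in at least 1 of the fits that left out an array.

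On chromosome 1, CYP71B28 (AT1G13090) read 7.34 and 7.24 on day 3, 7.31 and 7.19 on day 4, and 7.68 and 7.73 on day 5. The day 5 samples were above the 4 others, which overlapped. It rose on day 5 by 0.45 relative to day 4 (SE 0.10, limma adjusted p = 0.00866) and by 0.41 relative to day 3 (adjusted p = 0.0104). With 27 poly-A controls both changes turned negative, to -0.024 and -0.023 (adjusted p = 0.861 and 0.872, the highest of 17 alternatives), and with 24 to -0.096 and -0.073. Both calls ended without the second array of day 5, and the one relative to day 3 also without the second array of day 3. Its neighbour CYP71B29 (AT1G13100) read 4.21 and 4.23 on day 5, against 4.04 and 3.80 on day 4, a change of 0.30 that missed the threshold (adjusted p = 0.0651). It passed after repeated quantile normalization, cyclic loess or the removal of the first array of day 4 (adjusted p = 0.0328 to 0.296 over 16 alternatives). CYP71B27 (AT1G13070), which RefSeq lists as a transcribed pseudogene, had a change of 0.17 for day 5 against day 3 (adjusted p = 0.318).

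CYP78A9 (AT3G61880) belongs to a family that promotes organ growth and is known for large fruits when overexpressed. It read 4.85 and 4.75 on day 3, 4.80 and 4.91 on day 4, and 5.23 and 5.42 on day 5. Day 5 stood above the overlapping earlier days. It rose on day 5 by 0.52 relative to day 3 (SE 0.11, limma adjusted p = 0.00431), but by 0.08 with 27 poly-A controls (adjusted p = 0.581) and 0.03 with 24 (adjusted p = 0.826, the highest of 16 alternatives). Relative to day 4 it rose by 0.47 (adjusted p = 0.0106), and the poly-A scales turned this to -0.013 (adjusted p = 0.933, the highest of 16) and -0.084. Without the second array of day 5 neither rise passed, and the one relative to day 4 also failed without the first array of day 4.

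The other measured P450 genes of the pathway lists passed no test. CYP79A2 (AT5G05260), which makes the precursor of benzyl glucosinolate from phenylalanine, lay between 4.00 and 4.15 on all arrays. CYP84A4 (AT5G04330), of the arabidopyrone pathway, read 4.99 and 5.45 on day 5, against 5.18 and 5.52 on day 3, and the days overlapped. CYP71B6 (AT2G24180), which acts on indole compounds of defence, lay between 8.46 and 8.82 and changed by 0.14 for day 5 against day 3, with a 95% interval of -0.11 to 0.38.

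Outside those lists, CYP71B38 (AT3G44250) read 5.35 and 4.89 on day 3 and between 5.37 and 5.46 on the 4 later arrays. Its change of 0.27 for day 5 against day 3 (limma adjusted p = 0.176) was 0.50 and past the test without the first array of day 3 (adjusted p = 0.0209, the lowest of 16 alternatives, the highest being 0.88). CYP51G2 (AT2G17330), listed as a transcribed pseudogene, lay between 4.21 and 4.65. P450 genes of brassinosteroid, abscisic acid, gibberellin, cytokinin, jasmonate, cutin and sterol metabolism were listed too, but none had a probe set of its own among those named, and they were not analysed here.

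**Figure D4:**
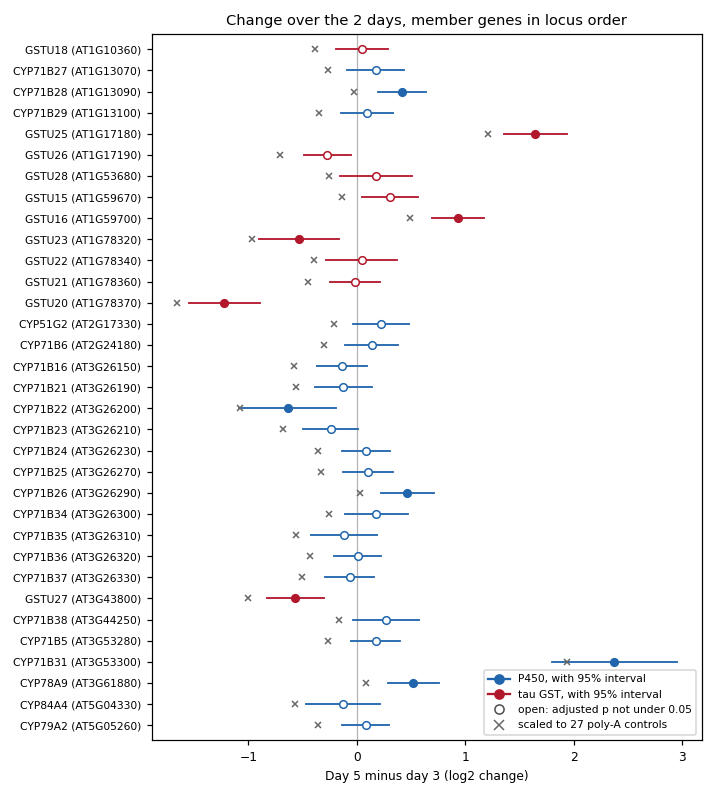
Log2 change for day 5 minus day 3 of the 33 genes in locus order, with 95% intervals from the limma fit; filled circles have an adjusted p under 0.05 and grey crosses give the change after scaling to the 27 poly-A controls. GSTU25 at 1.65 and GSTU26 at -0.27 are neighbours, as are CYP71B31 at 2.37 and CYP71B5 at 0.17.

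In all, 24 of the 33 genes lay in 6 groups of neighbours, defined as genes of 1 subfamily whose locus numbers are within 100 of the next. Each of the 6 groups held a gene that passed a test and a gene that passed none. In the F test, which 31.0% of all probe sets passed, 4 of 11 genes passed from CYP71B16 to CYP71B37. From CYP71B27 to CYP71B29 1 of 3 passed it, and in each pair of neighbours 1 of 2. From GSTU20 to GSTU23 1 of 4 passed it, GSTU20, while GSTU23 did not. Whether such mixed groups were more frequent than among other genes was not tested. In the group of GSTU20 to GSTU23 (AT1G78320 to AT1G78370), GSTU20 and GSTU23 were lower on day 5 than on day 3, while GSTU22 stood at 0.04 and GSTU21 at -0.02. In the GSTU15 and GSTU16 pair the changes over that span were 0.30 and 0.93, and among CYP71B27, CYP71B28 and CYP71B29 they were 0.17, 0.41 and 0.09. The difference in change between neighbours was not tested, and similar genes can share some hybridisation, although none of the 33 probe sets is of the kinds marked by the array maker as matching several transcripts.

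Other genes of glutathione use and detoxification were listed, and 13 of them were measured. For day 5 against day 3, 2 of 13 rose and 2 fell (limma adjusted p under 0.05), or 15.4% each way, against 13.2% and 15.7% of all probe sets, and their median change was -0.01. AER (AT5G16970), an alkenal reductase that removes reactive aldehydes, read 6.90 and 6.89 on day 5, against 6.36 and 6.43 on day 3, a change of 0.50 (adjusted p = 0.00295). GSTF4 (AT1G02950), a glutathione transferase of the phi class, was lower on both day 5 arrays than on both day 3 arrays, by a log2 change of -0.82 (adjusted p = 0.000667). UGT73B1, a sugar transferase, stood at 0.37 (adjusted p = 0.038), and UGT76B1, which adds glucose to small defence signals, at -0.45 (adjusted p = 0.011). These calls were not run under the alternatives. GSTL3 and the glutathione reductase gene GR stood at 0.23 and 0.06 and did not pass.

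Few markers of bud tissues had a named probe set. Of 16 tapetum markers only AMS was measured, which read 8.81 and 9.23 on day 5, against 9.51 and 9.61 on day 3, and fell by 0.54 (limma adjusted p = 0.0154). Of 11 late pollen markers 5 were measured, with a mean level of 6.73 to 6.74 on day 5, against 6.52 to 6.56 on day 3. For day 5 against day 3, 2 of the 5 rose, where 13.2% of all probe sets did. They were ANX2 at 0.45 (limma adjusted p = 0.0189) and AGL65 at 0.42 (adjusted p = 0.014). ANX1, AGL66 and AGL104 stood at 0.06, 0.02 and 0.004 and did not pass. UFO, 1 of 13 floral markers, lay between 4.48 and 5.08. PAP85, a seed storage protein gene and the only 1 of 8 seed markers measured, read 4.89 and 5.71 on day 5, against 3.99 and 4.05 on day 3 (adjusted p = 0.000748). The 2 of 8 leaf markers and 2 of 9 root markers measured did not pass over that span, with mean levels of 10.27 to 10.36 and 4.41 to 4.44 on day 5, against 10.19 to 10.33 and 4.45 to 4.51 on day 3. On day 4 relative to day 3, ANX2 rose by 0.54 (limma adjusted p = 0.0309) and the root marker EXPA18 by 0.44 (adjusted p = 0.0326). On day 5 relative to day 4, EXPA18 fell by 0.63 (adjusted p = 0.00153), AMS by 0.43 (adjusted p = 0.0497) and UFO by 0.38 (adjusted p = 0.0488). PAP85 rose by 1.27 on that step (adjusted p = 0.00135). No other marker passed for either step, which 4.95% and 23.9% of all probe sets passed. The part of these shifts in the changes of the P450 and tau glutathione transferase genes was not tested. The marker calls were not run under the alternatives, the poly-A scales included. In whole buds, fewer cells of a type and less RNA per cell cannot be told apart.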

How the data were processed

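The authors deposited 1 log2 value per probe set and array, computed by RMA (affy), per the submitters' processing notes; versions are not given there. Of 22810 probe sets, 64 controls were left out and 22746 tested, with no filter on low values. In the platform annotation 13513 carried 1 gene, 503 several and 8730 none, and all 33 members matched RefSeq (TAIR10.1).

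All 6 arrays entered a linear model with day as the term (limma 3.58.1, R 4.3.3; 3 residual and 8.01 prior degrees of freedom), tried first on simulated data. P-values are two-sided with Benjamini-Hochberg adjustment over all probe sets tested. Sample values are given for the largest changes past the test without overlap. Of the members of role lists, neighbours of these, and the brightest and dimmest members, some have sample values. Others have only a range, a change or the name. CYP71B27, CYP71B29, CYP71B38, CYP51G2 and the genes that are not members were named after their values were seen. Members and lists were chosen with earlier results of these data known. Alternatives changed the prior, scaling, filter, probe sets or block, fitted the compared days alone, or dropped an array. The second step minus the first, and scaling to 24 poly-A controls, were added after seeing the data. Planned sequence searches were not run.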

Additional observations from a re-analysis of the deposited data

How the results depend on the processing

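Of 29 member results past the threshold, the 7 differences between steps included, 9 passed in the same direction in every alternative run. Leaving out 1 array, where a day's lone array is assumed to vary like the others, gave 9 to 12 genes in the F test, 1 to 2 higher and 0 to 2 lower for day 4 against day 3, 3 to 6 higher and 3 lower for day 5 against day 4, and 4 to 6 higher and 2 to 4 lower for day 5 against day 3. Each fit without an array has fewer degrees of freedom, and each also called fewer of all probe sets for day 4 against day 3. Without the dimmest 30% of probe sets, which kept 14 of 33 members, 3 were higher for day 5 against day 4. These were GSTU16, CYP71B28 and CYP71B34, which kept their calls, while GSTU25 and CYP78A9 were removed by the filter and not tested. Of all probe sets kept, 2476 were higher for this comparison, against 2395 of all probe sets without the filter.

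With 27 poly-A controls, 30 members passed the F test. For day 5 against day 4, 1 was higher and 25 lower, or 3.03% and 75.8%, against 2.14% and 79.6% of all probe sets. Relative to day 3, 3 were higher and 20 lower on day 5, or 9.09% and 60.6%, against 3.6% and 72.2%. With 24, chosen after seeing the data, 31 passed the F test. For day 5 against day 4, 1 was higher and 26 lower, or 3.03% and 78.8%, against 1.7% and 84.3% of all probe sets. Relative to day 3, 3 were higher and 23 lower on day 5, or 9.09% and 69.7%, against 3.14% and 76.8%. The share of all probe sets in the F test on these scales is not given here. Of all probe sets called for day 5 against day 3, 4.75% were higher with 27 controls and 3.93% with 24, against 45.6% as reported; for day 5 against day 4 these shares were 2.62% and 1.97%, against 44%, and for day 4 against day 3 62.2% and 68%, against 50.1%. For day 5 against day 4, the sign of 9 members turned on both scales, with 27 and with 24 controls to -0.37 and -0.45 in GSTU18, -0.43 and -0.50 in GSTU21, -0.38 and -0.45 in CYP71B24, -0.38 and -0.45 in CYP71B5, -0.39 and -0.46 in CYP79A2, -0.024 and -0.096 in CYP71B28, -0.013 and -0.084 in CYP78A9, -0.063 and -0.13 in CYP71B22, and -0.17 and -0.25 in CYP71B29. For day 5 against day 3, it turned in 16 members on both scales, to -0.39 and -0.44 in GSTU18, -0.39 and -0.44 in GSTU22, -0.35 and -0.40 in CYP71B29, -0.30 and -0.35 in CYP71B6, -0.35 and -0.40 in CYP71B24, -0.33 and -0.38 in CYP71B25, -0.43 and -0.48 in CYP71B36, -0.36 and -0.41 in CYP79A2, -0.023 and -0.073 in CYP71B28, -0.26 and -0.31 in CYP71B27, -0.26 and -0.31 in CYP71B34, -0.27 and -0.32 in CYP71B5, -0.13 and -0.18 in GSTU15, -0.26 and -0.31 in GSTU28, -0.21 and -0.26 in CYP51G2, and -0.17 and -0.22 in CYP71B38. CYP71B26 turned to -0.022 with 24 controls and not with 27. For day 4 against day 3, 3 members with 27 controls and 5 with 24 changed sign, none of them past the test on any of these scales. Whether equal amounts of control RNA went into each sample is not stated in the labels, and the cause was not tested.

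With the replicate number as a block, 12 members passed the F test and no other count of members changed. Same-numbered samples deviated together by correlations of 0.0579, 0.0975 and -0.0022, so the numbers are not taken as pairs.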
